A study of Mus musculus with 9 samples.

Results

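Ccl4, Cxcl14, Xcr1 and Cxcr2 are 4 chemokine genes of the mouse, of 12275 genes listed in a pair of deposited expression tables. Ccl4 and Cxcl14 encode ligands, and Xcr1 and Cxcr2 encode receptors. They were chosen by symbol after their values in these mice were known. Leaving the atypical receptors aside, each had the highest or the lowest change of the listed chemokine genes in 1 comparison, so their changes are given as descriptions without a test. The table of BA and AV mice held 3 of them (Cxcl14, Xcr1 and Cxcr2) among 9872 genes. The table of BA and AP mice also held 3 (Ccl4, Cxcl14 and Cxcr2) among 11820 genes.

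The RNA came from YFP-positive cells sorted from the amygdala of B6.Cg-Tg(Thy1-YFP)HJrs/J mice, with 1 mouse per library. All the mice carry the transgene, in which the Thy1 promoter drives YFP mainly in pyramidal neurons and, less strongly, in some other neurons. In a Y-maze that set palatable food against an aversive lit arm, mice were classed as balancing (BA, 3 mice), avoiding (AV, 3 mice) or approaching (AP, 3 mice), and they were killed 1 month later. AV mouse 2 was taken out by the authors as an outlier, so AV mice 1 and 3 were compared with the 3 BA mice, and AP mice 1 to 3 with the same 3 BA mice. No treatment or age is given in the labels, and the groups are defined by behavior.

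Chemokines are small secreted proteins that direct the migration of cells by binding receptors with a bundle of membrane-spanning helices. Most of these receptors act through G proteins of the Gi class, and arrestins and G protein-coupled receptor kinases then switch them off. Atypical receptors bind chemokines without this G protein signal and take them up. In the brain, Cx3cr1 is the chemokine receptor best known from microglia, and Cxcl12 guides neurons and their precursors. CCL4 is a ligand released by macrophages and activated microglia. CXCL14 is a conserved chemokine whose main receptor is debated. XCR1 is the receptor of XCL1 and marks the dendritic cells that present antigen to CD8 T cells. CXCR2 binds CXCL1, CXCL2 and CXCL5, draws neutrophils to inflamed tissue and is also known from oligodendrocyte precursors.

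The class of each gene can be read in its coding sequence. From the GENCODE M21 transcripts of GRCm38, 90 bases of each coding sequence are shown 5′ to 3′, because they hold the codons by which the families are told apart. Capitals mark a pair of adjacent cysteine codons in Ccl4 (the CC class), a pair of cysteine codons with 1 codon between them in Cxcl14 (the CXC class), the Asp-Arg-Tyr codons in Cxcr2 and the His-Arg-Tyr codons at the corresponding place in Xcr1. The Arg-Tyr pair belongs to the motif at the end of the third helix, where these receptors meet the G protein.
Ccl4: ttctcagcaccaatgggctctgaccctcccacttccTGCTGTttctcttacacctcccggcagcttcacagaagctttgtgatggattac
Cxcl14: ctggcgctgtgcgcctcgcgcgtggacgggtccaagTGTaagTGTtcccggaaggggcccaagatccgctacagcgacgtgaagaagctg
Cxcr2: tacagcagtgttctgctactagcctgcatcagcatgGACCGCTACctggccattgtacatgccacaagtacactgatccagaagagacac
Xcr1: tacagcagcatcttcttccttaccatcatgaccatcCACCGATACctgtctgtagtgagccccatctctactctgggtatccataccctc
These are bases 64 to 153 of 279 coding bases in Ccl4, 37 to 126 of 300 in Cxcl14, 388 to 477 of 1080 in Cxcr2 and 373 to 462 of 1017 in Xcr1. The ligands are encoded by 92 (Ccl4) and 99 (Cxcl14) codons and the receptors by 359 (Cxcr2) and 338 (Xcr1).

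In the same annotation Ccl4 (ENSMUSG00000018930.3) lies on the plus strand at chr11:83662584-83664683 in 3 exons, and Cxcl14 (ENSMUSG00000021508.11) on the minus strand at chr13:56288643-56296551 in 4. Xcr1 (ENSMUSG00000060509.4) lies on the minus strand at chr9:123852315-123862029 in 2 exons, and Cxcr2 (ENSMUSG00000026180.8) on the plus strand at chr1:74153989-74161246 in 2. No exon of the 4 genes overlaps an exon of another gene. The genes differ in how much of their transcripts is their own. Of the 31-base words in their transcripts, 0 of 630 in Ccl4 and 0 of 1827 in Cxcl14 occur in a transcript of another gene. In Cxcr2 234 of 3039 words do (7.70%), spread over 707 other genes, and in Xcr1 135 of 4423 (3.05%), spread over 994. All of these shared words lie behind the coding part, at bases 1680 to 2960 of the transcript Cxcr2-202, whose coding part ends at base 1228, and at bases 1574 to 1756 of Xcr1-201, whose coding part ends at base 1089.

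Expression is given as a normalized signal, which is not a count of reads. It sums to between 3267967 and 3974274 per mouse for BA vs AV and to between 4589304 and 5072766 for BA vs AP. No value of the BA vs AP table lies below 2. Above this floor, 78.5% to 86.9% of each mouse's low values fall on whole multiples of a step (within 0.01 of a step). A step is worth 1 read. At this step the values of the listed genes stand for 3817186 to 6720901 reads per mouse. This is an estimate for these genes and not the depth of a library. A count of 3 reads, up to which absence is possible, lies at 4.13 to 5.68 on this scale. The BA vs AV table has no steps, its depth is unknown, and its lowest values lie between 1.43 and 1.99. Few markers of the labelled cell type had a row. Of 9 pyramidal neuron markers only Camk2a and Nrgn had a row in either table. In the BA vs AV table the BA mice had a summed signal of 188646 to 233683 for 8 oligodendrocyte markers. Camk2a had 55.3 to 77.3 in these BA mice and 1656 and 2965 in the AV mice. A gene without a row in the BA vs AV table is not always low. Csf1r and Fos have no row there, with means of 729 and 2859 in the BA mice of the BA vs AP table. The cells are therefore called YFP-sorted cells here. A lower value may stand for fewer cells of a type or for less RNA per cell, and these cannot be told apart.

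Ccl4 was higher in AP mice than in BA mice. Its normalized signal was 26.5, 6.10 and 30.2 in BA mice 1 to 3 and 110.0, 56.5 and 134 in AP mice 1 to 3. All AP mice lay above all BA mice, and BA mouse 2 was the lowest by a wide margin. The mean was 20.9 ± 13 (SD, n = 3) in BA and 100.2 ± 39.6 (SD, n = 3) in AP, a ratio of means of 4.78, and the log2 fold change of value + 1 was 2.38 (SE 0.57). All 6 values lie on steps and stand for 23, 4 and 23 reads in BA and 95, 77 and 122 reads in AP. The 4 reads of BA mouse 2 are 1 read above the limit of 3, and without this mouse the log2 fold change was 1.70. In rank among the listed genes Ccl4 moved from percentiles of 0.833 to 14.1 in BA mice to percentiles of 25.8 to 48.9 in AP mice. No row of the BA vs AV table holds Ccl4, so AV mice have no value here.

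Cxcl14 was the member with the highest mean signal in each group, and it was higher in AV mice than in BA mice. For BA vs AV it had 112, 76.9 and 122 in BA mice 1 to 3 and 255 and 376 in AV mice 1 and 3. Both AV mice lay above all BA mice. The means were 104 ± 23.6 (SD, n = 3) and 316 ± 85.5 (SD, n = 2), with a log2 fold change of 1.60 (SE 0.30) and a range of 1.32 to 1.88 when each mouse was left out.

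Against AP mice, Cxcl14 had 142, 95.3 and 133 in the BA mice and 85.0, 402 and 187 in the AP mice, which stand for 131, 91 and 107 reads and for 73, 564 and 171 reads. The groups overlap, since AP mouse 1 was the lowest of the 6 mice and AP mouse 2 the highest. The log2 fold change of 0.61 (SE 0.50) rested on this spread within AP: without AP mouse 2 it was 0.05 and without AP mouse 1 it was 1.17.

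Xcr1 had the lowest signal of the 3 members in the BA vs AV table and was lower in AV mice. It had 24.9, 19.1 and 23.8 in the BA mice and 10.8 and 6.06 in AV mice 1 and 3. The groups do not overlap. The means were 22.6 ± 3.11 (SD, n = 3) and 8.42 ± 3.33 (SD, n = 2), and the log2 fold change was -1.36 (SE 0.29). These are low values: AV mouse 3 stood at the 1.94 percentile of the listed genes and close to the level that 3 reads have in the other table, so the size of the change depends on the pseudocount. With 8 in place of 1 added before taking logs it was -0.91, without AV mouse 1 it was -1.73 and without AV mouse 3 it was -1.0. AP mice have no Xcr1 value here, as the BA vs AP table has no row for it.

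Cxcr2 was lower than in BA mice in both other groups. In the BA vs AV table it had 43.9, 37.0 and 50.0 in the BA mice and 23.8 and 20.1 in the AV mice, and the groups do not overlap. The means were 43.6 ± 6.50 (SD, n = 3) and 21.9 ± 2.60 (SD, n = 2), with a log2 fold change of -0.95 (SE 0.24).

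For BA vs AP, Cxcr2 had 73.0, 56.6 and 61.1 in the BA mice and 42.6, 46.3 and 52.3 in the AP mice. The AP mice again all lay below the BA mice, with 56.6 and 52.3 as the nearest values. The log2 fold change was -0.42 (SE 0.22), and it ranged from -0.50 to -0.32 when each mouse was left out. The BA mice are the same in both comparisons, so these are not separate observations of the BA level.

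**Figure D1:**
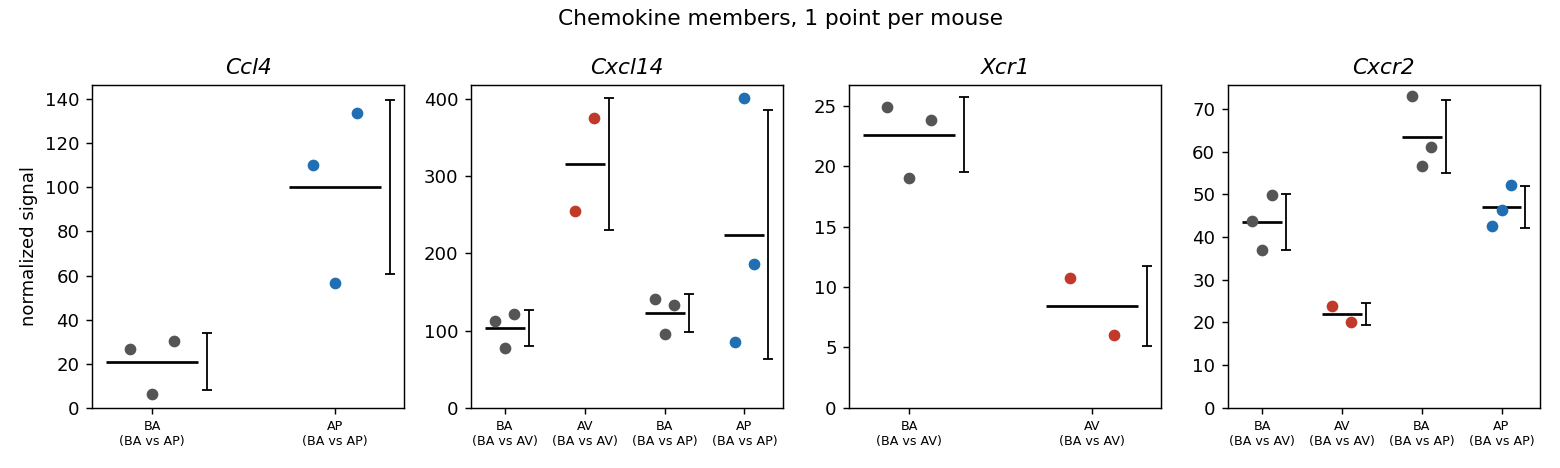
Normalized signal (y axis, linear, from 0) of Ccl4, Cxcl14, Xcr1 and Cxcr2 in every mouse, by group and table (x axis), with 1 point per mouse, a line at the group mean and a bar of ± 1 SD. Ccl4 is higher in all AP mice (56.5 to 134) than in the BA mice (6.10 to 30.2), Xcr1 and Cxcr2 are lower in the AV mice, and Cxcl14 spreads from 85.0 to 402 within AP.

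The members that the groups separate are 3 of 3 in BA vs AV, where the groups do not overlap for 58.9% of all listed genes, and 2 of 3 in BA vs AP, where they do not overlap for 12.1%. As these comparisons chose the members, the counts are given only beside that background.

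Levels of different genes were compared as signal per kilobase of exon. In the BA mice of the BA vs AV table, Cxcl14 had a mean of 56.7 per kilobase, Cxcr2 14.3 and Xcr1 5.08, and in the AV mice 173, 7.20 and 1.89. The mice of a group did not overlap between these genes. Against AP, Cxcl14 had 67.5 in BA, Ccl4 31.7 and Cxcr2 20.9, and the ranges of Ccl4 and Cxcr2 over the BA mice overlap. In AP mice the short Ccl4 had a mean of 152 and Cxcl14 of 123, and their ranges over mice overlap.

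Cxcr2 differed from the other chemokine genes in the form of its values. Of 17 chemokine genes in the BA vs AP table, 16 had values on whole-read steps in at least 5 of 6 mice, and Cxcr2 alone had none on a step in any mouse. A value between steps means a count that was not whole. The same BA mice also had a lower Cxcr2 signal in the BA vs AV table, at 0.601, 0.653 and 0.818 times the other table, against a median of 0.825 to 0.867 times over the 9417 genes in both tables. For Cxcl14 these ratios were 0.794, 0.808 and 0.914. Cxcr2 is also the member with the highest share of words found in other genes, and the part of this in its values was not tested.

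Ligands of the receptors were partly without a row. Xcl1, the ligand of XCR1, and Cxcl1, a ligand of CXCR2, had none in either table. The CXCR2 ligands Cxcl2 and Cxcl5 were in the BA vs AP table only. Cxcl2 had 20.1, 42.0 and 142 in the BA mice and 75.9, 86.3 and 120 in the AP mice (log2 fold change 0.88, SE 0.60, adjusted p = 0.727). Cxcl5 stood for 11 reads or fewer in every mouse (-0.32, SE 0.37, adjusted p = 0.829). For neither did the groups separate.

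Of the 61 other chemokine ligands and receptors searched for, 5 were in the BA vs AV table, of which limma called 2 higher and 1 lower at an adjusted p under 0.05, where 29.7% of all listed genes were called, 13.6% higher and 16.2% lower. Cx3cr1, the fractalkine receptor of microglia, rose from 176, 167 and 261 in the BA mice to 357 and 620 in the AV mice (1.25, SE 0.33, adjusted p = 0.0309). Ackr1, an atypical receptor, rose from 2.0, 15.6 and 5.31 to 39.1 and 33.5 (2.45, SE 0.65, adjusted p = 0.0301). It stood at the 0.324 percentile of the listed genes in BA mouse 1, so the size of this rise rests on very low values. Its transcripts share 23.0% of their words with Cadm3, an adhesion gene with 361 exon bases in common on the same strand that rose as well (1.24, SE 0.28, adjusted p = 0.0179), so reads of these genes may be split between them.

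Cxcl12 fell from 112, 120.0 and 111 in the BA mice to 58.0 and 65.3 in the AV mice (-0.88, SE 0.21, adjusted p = 0.0219). The ligands Ccl25 (-0.72, SE 0.28, adjusted p = 0.0924) and Ccl6 (-0.46, SE 0.35, adjusted p = 0.360) did not pass the test. These 3 calls were sensitive to single mice. Ackr1 was called in 3 of 5 fits that left out 1 mouse (not without BA mouse 1 or 3), with adjusted p between 0.0172 and 0.0903. Cx3cr1 was called in 2 of 5 (not without BA mouse 1, BA mouse 2 or AV mouse 3), with adjusted p between 0.00503 and 0.107, and Cxcl12 in 1 of 5 (without AV mouse 3), with adjusted p between 0.0238 and 0.0804.

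The comparison of BA and AP mice listed 14 other chemokine genes, and limma called 0 of them at an adjusted p under 0.05, where 0.00846% of all listed genes were called. At an unadjusted p under 0.05 there were 5, all higher in AP (Ccrl2, Cx3cr1, Cxcl16, Ccl27a and Cxcl12), where 4.99% of all listed genes were higher at this level. With a variance prior that follows mean expression limma called 1 chemokine gene, Cx3cr1 (adjusted p = 0.0481). Of the 14 genes 11 had a positive log2 fold change, and their median was 0.87, beside -0.032 over all listed genes. The count of 5 was 2 without BA mouse 2, 3 without BA mouse 1 and 8 without BA mouse 3.

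Among these genes, Ccrl2, an atypical receptor, had 38.2, 24.5 and 32.6 in the BA mice and 138, 71.4 and 97.2 in the AP mice (1.63, SE 0.30, adjusted p = 0.237). Cx3cr1 had 201, 203 and 322 in the BA mice and 666, 492 and 944 in the AP mice (1.51, SE 0.31, adjusted p = 0.259). In both receptors the groups do not overlap. Cxcl16, a membrane-bound chemokine, had 52.1, 29.7 and 58.4 in the BA mice and 207, 55.8 and 207 in the AP mice (1.56, SE 0.51, adjusted p = 0.50), with AP mouse 2 inside the BA range.

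Cxcl12 had 126, 151 and 137 in the BA mice and 185, 249 and 180.4 in the AP mice (0.56, SE 0.23, adjusted p = 0.616). Ccl27a stood for 5 to 9 reads in the BA mice and 10 to 41 in the AP mice (1.10, SE 0.44, adjusted p = 0.606), and 57.0% of its words occur in 5 near copies, so its level is uncertain. The monocyte attractants Ccl2 (1.12, SE 0.65), Ccl12 (1.13, SE 0.63) and Ccl7 (0.85, SE 0.42) and the eosinophil attractant Ccl24 (0.55, SE 0.55) had adjusted p between 0.685 and 0.803. Ccl6 (0.04, SE 0.39), Ccl25 (-0.21, SE 0.43) and Ackr3 (-0.54, SE 0.46) had adjusted p between 0.772 and 0.981.

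**Figure D2:**
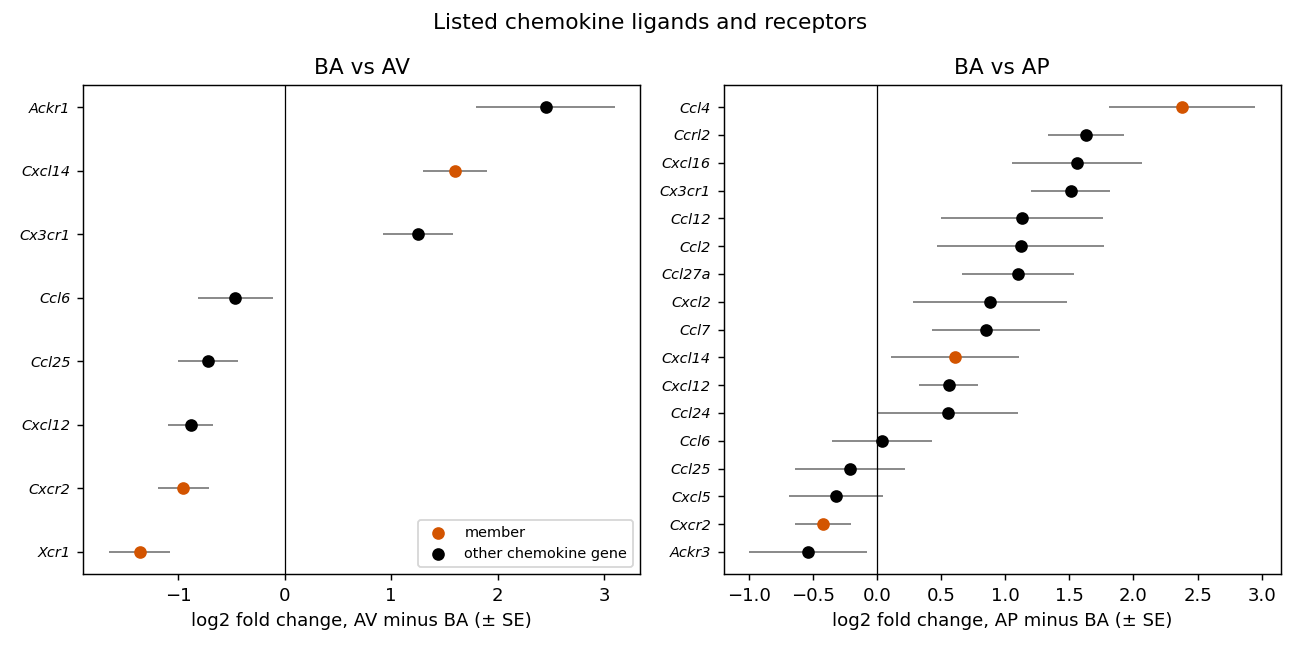
Log2 fold change against BA (x axis, bars ± SE) of each chemokine ligand and receptor listed in the BA vs AV table (left, 8 genes) and in the BA vs AP table (right, 17 genes), with the members in orange. Ackr1 (2.45) and Cxcl14 (1.60) lie highest and Xcr1 (-1.36) lowest on the left, and Ccl4 (2.38) lies highest on the right, where 13 of 17 genes are positive.

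Just beside the members in these orders stand Cx3cr1 below Cxcl14 (1.25 against 1.60) and Cxcl12 above Xcr1 and Cxcr2 (-0.88 against -1.36 and -0.95) in BA vs AV, and Cxcl16 below Ccl4 (1.56 against 2.38) and Cxcl5 above Cxcr2 (-0.32 against -0.42) in BA vs AP. With the atypical receptors included, Ackr1 lies above Cxcl14, Ackr3 below Cxcr2, and Ccrl2 comes next after Ccl4.

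Markers of other cells moved with several of these genes. Of 16 microglia markers 15 had a row in the BA vs AP table. None passed limma at an adjusted p under 0.05, all 15 were higher in AP with an unadjusted p under 0.05 (4.99% of all listed genes), and for 14 the groups did not overlap (12.1% of all listed genes), with a summed signal of 1881, 1625 and 3599 in the BA mice and 6343, 4819 and 8234 in the AP mice. For Cx3cr1 the value per 1000 of this sum stayed between 89.5 and 125 over the 6 mice, a 1.40-fold range, while its own signal ranged 4.69-fold. For Ccl4 it was 14.1, 3.75 and 8.39 in the BA mice and 17.3, 11.7 and 16.3 in the AP mice. Over the 6 mice Ccl4 ranged 22.0-fold and the sum 5.07-fold. This gap rested on BA mouse 2: without it Ccl4 ranged 5.05-fold and the sum 4.38-fold. On the scale per 1000 of the sum, AP mouse 2 lay below BA mouse 1.

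Genes of the response to tissue dissociation had positive log2 fold changes too: 14 of 20 were listed, all 14 were positive, and none passed limma at an adjusted p under 0.05. At an unadjusted p under 0.05 there were 6, where 4.99% of all listed genes were higher, and 0 separated the groups, against 12.1% of all listed genes. Their summed signal was 20309, 11119 and 9897 in the BA mice and 26841, 15755 and 28504 in the AP mice. The part of microglia content or of dissociation in the Ccl4 values was not tested. The BA vs AV table had 2 of the 16 microglia markers, Tmem119 (2.36, SE 0.29, adjusted p = 0.00365) and C1qa (1.65, SE 0.31, adjusted p = 0.0106), and both rose.

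Cxcl14 moved with astrocyte markers. For BA vs AP the summed signal of 8 astrocyte markers was 14226, 12533 and 17502 in the BA mice and 9952, 53054 and 30060 in AP mice 1 to 3, so AP mouse 1 was lowest and AP mouse 2 highest, as for Cxcl14 itself. Per 1000 of this sum Cxcl14 stayed between 6.22 and 9.95, a 1.60-fold range, while its own signal ranged 4.72-fold and the sum 5.33-fold. For BA vs AV the sum of the 7 listed markers was 11950, 9919 and 15503 in the BA mice and 31052 and 60236 in the AV mice. Most of this sum came from Slc1a2, with a mean of 7841 in BA and 34421 in AV. There Cxcl14 per 1000 of the sum lay between 6.24 and 9.40, a 1.51-fold range against 4.89-fold for its signal. Cx3cr1 per 1000 of the same sum also stayed within a 1.64-fold range in this table. Cxcl14 on this scale was 9.40, 7.76 and 7.85 in the BA mice and 8.22 and 6.24 in the AV mice, so the groups overlap. This ratio was looked at after the values had been seen, and the part of astrocyte content in the Cxcl14 change was not tested.

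**Figure D3:**
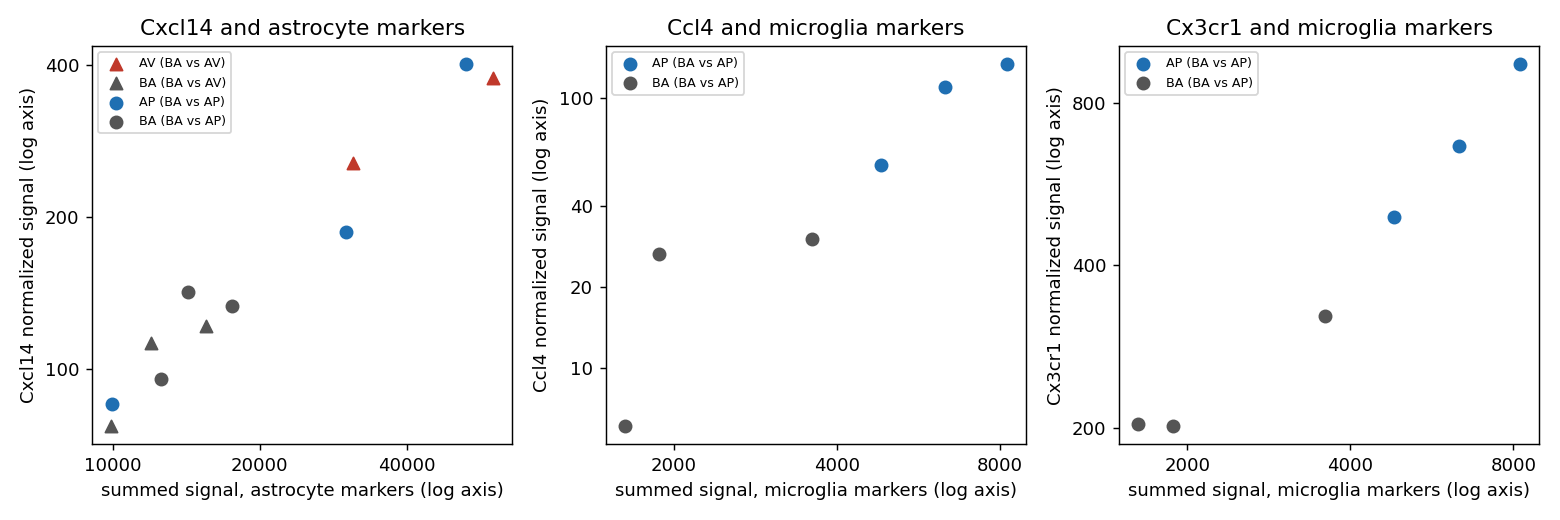
Normalized signal of Cxcl14 against the summed signal of astrocyte markers (left), and of Ccl4 (middle) and Cx3cr1 (right) against that of microglia markers, with 1 point per mouse and table and log scales on both axes. Cxcl14 and Cx3cr1 follow the sums within 1.60-fold and 1.40-fold ranges of their ratio in the BA vs AP table, and Ccl4 of BA mouse 2 (6.10) lies far below the other mice.

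Marker genes of the cells best known for Cxcr2 and Xcr1 were mostly without a row. This does not show that such cells were absent, since the BA vs AV table also held only 2 of 16 microglia markers. Of 9 neutrophil markers, 0 were in the BA vs AV table and only Csf3r, which microglia also express, was in the BA vs AP table, without S100a8, S100a9 or Ly6g. Of 7 markers of the dendritic cells that carry XCR1, the tables held Irf8, Zbtb46 and Cadm1, which other brain cells express as well, and neither held Clec9a or Batf3. Irf8 (1.28, SE 0.30, adjusted p = 0.0218) and Zbtb46 (0.98, SE 0.28, adjusted p = 0.0399) rose in AV mice while Xcr1 was lower there. Cadm1 did not pass the test (0.08, SE 0.26, adjusted p = 0.836). Of 8 oligodendrocyte markers 6 were called lower in AV mice, where 16.2% of all listed genes were, with a sum of 188646 to 233683 in BA against 53606 and 82507 in AV. Per 1000 of that sum Xcr1 ranged 2.74-fold, against 4.11-fold for its signal, and Cxcr2 2.80-fold, against 2.48-fold for its signal. Per 1000 of the summed endothelial markers (3 of 7 listed), Cxcr2 ranged 1.38-fold in this table and 2.41-fold in the other, where its signal ranged 1.71-fold. Their part in the lower Xcr1 and Cxcr2 values was not tested.

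The genes whose pattern over the mice was most like that of each member were found by the root mean square difference of the centred log2 values. For Ccl4 these were Clec5a (0.31), Fgd2 (0.44) and Plekho1 (0.51) over 6 mice. Clec5a, a receptor of myeloid cells, had 8.39, 3.02 and 14.3 in the BA mice and 41.8, 24.7 and 39.8 in the AP mice. Again BA mouse 2 was lowest, here below the 5.07 that stands for 3 reads in this mouse. For Cxcl14 they were Slc1a3 (0.10), the glutamate transporter of astrocytes, Cfap54 (0.12) and Apoe (0.14), the main apolipoprotein of astrocytes, in the BA vs AP table. Over the mice of BA vs AV they were C1qa, a microglia marker, Ctnnd2 and Bahd1 (each 0.05 over 5 mice).

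For Xcr1 the most similar patterns were those of Gm11960 (0.03), a pseudogene, Prdm9 (0.07), known from meiosis, and Olfr769 (0.08), an olfactory receptor gene. Gm11960 had 306, 236 and 305 in the BA mice and 144 and 84.6 in the AV mice. For Cxcr2 they were Usp16, 2610008E11Rik and 6820431F20Rik (0.05 to 0.06) in the BA vs AV table, and Cog6, Rasgrp2 and Eif6 (0.07 to 0.08) in the BA vs AP table. None of these genes shares a 31-base word with its member. With 5 or 6 mice and so many genes, some genes of like pattern will be found for any gene.

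Downstream of the receptors stand the genes of receptor coupling (G protein subunits of the Gi class and their partners, receptor kinases and arrestins). Of 24 genes 20 were listed in BA vs AV, with 10 called higher and 1 lower, where 13.6% of all listed genes were called higher and 16.2% lower. Of the 20 genes 6 had a negative log2 fold change, and the median was 0.89, beside -0.026 over all listed genes. Without single mice between 7 and 11 were called higher. Gng2, a G protein gamma subunit, had the largest rise, from 25.3 ± 7.29 (SD, n = 3) to 280 ± 62.4 (SD, n = 2; 3.43, SE 0.30, adjusted p = 0.00278). Gng3, a gamma subunit known from neurons, rose by 2.76 (SE 0.27, adjusted p = 0.00288), and Gng11 fell by 1.48 (SE 0.21, adjusted p = 0.00503). The neuronal gene Camk2a rose more than any of these (5.04, SE 0.31, adjusted p = 0.00256). The part of neuronal content in these changes was not tested.

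In AP mice 22 coupling genes were listed, 0 were called, and 2 had an unadjusted p under 0.05, both higher, where 4.99% of all listed genes were higher at this level. These were Gng2 (1.62, SE 0.40, adjusted p = 0.359) and Gng10 (0.84, SE 0.31, adjusted p = 0.560), and the median was 0.17.

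**Figure D4:**
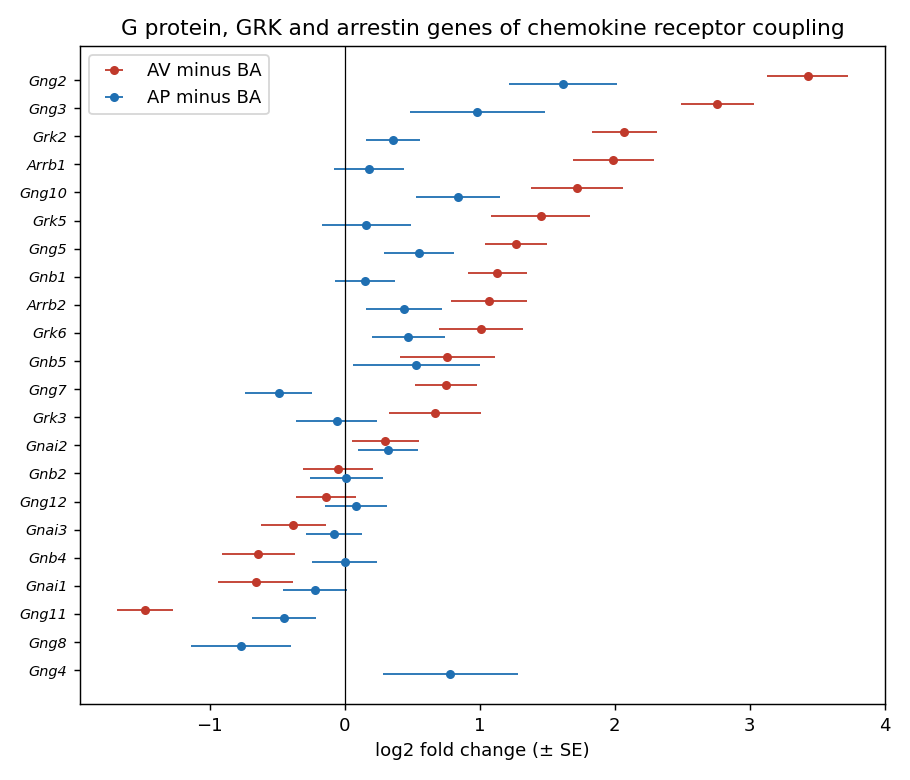
Log2 fold change against BA (x axis, bars ± SE) of each listed G protein, receptor kinase and arrestin gene of chemokine receptor coupling, in AV mice (red, 20 genes) and AP mice (blue, 22 genes). Gng2 lies highest in both (3.43 and 1.62), and Gng11 lowest in AV (-1.48).

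Further downstream, 60 of 79 effector genes (kinases, small GTPase regulators and other signal carriers) were listed in BA vs AV, with 12 called higher, 6 called lower and a median of 0.14, where 13.6% of all listed genes were called higher and 16.2% lower. Ptk2b, a calcium-dependent kinase, rose by 2.46 (SE 0.23) and Tiam1, an exchange factor of Rac, by 2.40 (SE 0.23), each with an adjusted p of 0.00288. Elmo1, a partner of DOCK proteins, fell by 1.49 (SE 0.31, adjusted p = 0.0134) and the kinase Jak2 by 1.34 (SE 0.26, adjusted p = 0.0112). The count of higher genes was 6 without BA mouse 2 and 6 without BA mouse 3. That of lower genes was 2 without BA mouse 2 and 11 without AV mouse 3.

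In BA vs AP 70 effectors were listed, 0 were called and 8 had an unadjusted p under 0.05, all higher, where 4.99% of all listed genes were higher at this level. Their median was 0.13. Lyn, a kinase of myeloid cells, had the largest change (1.61, SE 0.39, adjusted p = 0.349), followed by Pik3r5, a regulatory subunit of the PI3-kinase that G proteins activate (1.32, SE 0.36, adjusted p = 0.395).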

How the data were processed

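The authors sorted the cells, made stranded paired-end libraries of 1 mouse each and deposited a normalized signal per gene and mouse. Per the labels, the submitters' processing notes name bcl2fastq 2.20, Salmon 1.2 and GRCm38.p6. By the paper's methods, libraries were scaled by TMM, genes of low counts were removed and ARSyN corrected for batches. Whether ARSyN was applied to the BA vs AP table is not stated. Most of its low values keep whole-read steps, which the BA vs AV table lacks. The tables thus differ in form, and their numbers of called genes are not compared. The tables were normalized separately, so tests stayed within a table, and AV mouse 2 was not used here.

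Identifiers were matched to GENCODE M21 (9871 of 9872 and 11783 of 11820). Each comparison was fitted with limma 3.58.1 (R 4.3.3) with no covariate and all listed genes, on log2(value + 1), with Benjamini-Hochberg adjustment at 0.05. The plan named a count test for counts, which these values are not. Fold changes on this scale understate those of low genes. P values set the difference between groups against the spread between mice, with variances moderated over all genes. Batch correction and the removal of an outlier came before the fit, so the p values of BA vs AV may be too small. The fit was tested on simulated data. Words of 31 bases were searched on the transcript strand. Python 3.11.15, numpy 2.4.6, pandas 2.3.3 and matplotlib 3.10.9 were used.

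The members and all gene lists were chosen with earlier results of these data known. Named genes were the members, every other listed chemokine ligand and receptor, the 2 largest changes per direction of the coupling and effector lists among called genes (among those with an unadjusted p under 0.05 in BA vs AP), the leading listed markers and the 3 genes most like each member. Cadm3 and marker genes discussed as without a row were named after the values were seen. Alternatives were a pseudocount of 8, a mean of at least 20, median centring, a variance prior following mean expression, each mouse left out, the replicate number as a block and an adjusted p of 0.01. Leaving out the atypical receptors, removing the offset of 2, the counts of other lists without single mice and the range of Ccl4 without BA mouse 2 were added after seeing the data. A few genes that fall under the rule for named genes are not reported here.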

Additional observations from a re-analysis of the deposited data

How the results depend on the processing

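No sign of a member's change or of the median of the chemokine list turned in any alternative run, and 108 of 136 values stayed within the spread between mice or within 1.5 times the main count. Many of the 108 are counts of 0 in BA vs AP, which could only stay or rise. The 108 also include Cxcl14 in BA vs AP, which went from 0.61 to 0.05 without AP mouse 2. The causes of the other 28 were not tested. The chemokine list here includes the members, which were chosen from these data, so its counts are no test of them. For BA vs AV, 2934 genes and 6 chemokine genes were called, counting the 3 members listed there, for which a call is no test. With an adjusted p of 0.01 these counts were 1151 and 0, and without single mice they ranged from 1521 to 3497 and from 1 (without BA mouse 1) to 5. The median of the chemokine list was -0.59, and -0.46 without the members. With the members it was -0.44 with a pseudocount of 8 and ranged from -0.73 to -0.37 without single mice. Xcr1, at -1.36, was -0.91 with a pseudocount of 8 and ranged from -1.73 to -1.0 without single mice, and a mean of at least 20 leaves it out of the fit.

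For BA vs AP, 1 gene and 0 chemokine genes were called. The count over all genes was 0 with a pseudocount of 8, 0 with a mean of at least 20 and 10 with a variance prior following mean expression, which called 1 chemokine gene, and it ranged from 0 to 15 (without AP mouse 1) without single mice. The median of the chemokine list, 0.85, ranged from 0.49 to 1.24. Removing the offset of 2 gave 2.58 for Ccl4.

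With the replicate number as a block, 970 genes and 1 chemokine gene (Ackr1) were called in BA vs AV, and 0 genes in BA vs AP. The labels give no meaning to a shared number, and the deviations of same-numbered mice did not all correlate above 0.1: correlations were -0.0604 and -0.0389 in BA vs AV and 0.0202, 0.121 and 0.0813 in BA vs AP. In BA vs AV the deviations of the 2 AV mice mirror each other. Each BA mouse therefore has correlations of the same size and opposite sign with them. In BA vs AP every mouse correlated best with its own number, which is a hint from the data and not the design. Deviations within a group cancel out, so these correlations depend on each other. Depth limits Ccl4 in BA mouse 2 (4 reads), and it is unknown for BA vs AV, where 2 AV mice carry every statement.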
